A study of Mus musculus with 60 samples.

Results

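Glybenclamide (also called glyburide) was compared with its solvent in R1 cells, an established mouse embryonic stem cell line, on 3 arrays with 0.37 mM glybenclamide in 0.1% DMSO and 3 arrays with 0.1% DMSO only. All 21789 probe sets that the array's annotation pairs with a single gene symbol were taken, of 35556 in the table, and they stand for 19938 symbols. These 6 arrays belong to a series of 60, in 20 groups of 3, which also holds 18 other compounds. Each was given in 0.1% DMSO for 6 h at its own dose, and the labels tie only some of these doses to a viability assay. Glybenclamide was classed in the labels as a non-teratogen, and its dose was its IC10, the concentration that slightly lowers viability in a 24 h luminescence assay. The cells had been grown on feeder cells, depleted of them, and exposed for 6 h while attached and undifferentiated. Total RNA was read out as log2 signals, 1 per probe set and array, after RMA preprocessing. The labels call the arrays triplicates without saying that they came from separate cultures. The p-values and standard errors (SE) therefore measure the spread between arrays within a group, estimated over all 60 arrays of the 20 groups.

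Glybenclamide is a sulfonylurea used against type 2 diabetes. In pancreatic beta cells it binds the sulfonylurea receptor, the regulatory subunit of the ATP-sensitive potassium (KATP) channel, and closes the channel, so that the membrane depolarises and insulin is released. Other proteins of the ABC transporter family, to which the sulfonylurea receptor belongs, have also been reported to bind it. Mouse embryonic stem cells self-renew under transcription factors such as Pou5f1, Sox2 and Nanog. Autocrine FGF signalling through the kinase ERK moves them out of that state and also induces its own feedback inhibitors.

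The stem cell label was read against markers on these 6 arrays. The mean log2 signal over 28 pluripotency genes lay between 11.35 and 11.40 with glybenclamide and between 11.37 and 11.43 with DMSO. Pou5f1, the defining factor, had 12.85, 12.81 and 12.86 with glybenclamide and differed from DMSO by -0.04 on the log2 scale (adjusted p = 0.832). The same mean over 15 fibroblast genes, markers of the feeder cells, was 8.29 to 8.33 with glybenclamide and 8.35 to 8.40 with DMSO. Array signals have no true zero, so the absence of a marker could not be read from them. Of the fibroblast genes 0 rose and 2 fell, Col3a1 by 0.22 and Twist1 by 0.20 on the log2 scale, and Twist1 was not called under any of the alternatives in which it was tested. Col3a1 lost its call in 7 of 12 alternatives, and 0 of the fibroblast genes were called without glybenclamide replicate 1 or 3 or without DMSO replicate 1 or 2. Of 11 primitive endoderm and 10 trophectoderm genes, 0 were called in either direction, though without glybenclamide replicate 2 there was 1 rise and 1 fall among primitive endoderm genes and without DMSO replicate 3 there was 1 fall among trophectoderm genes.

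The median log2 signal of an array was 8.08 to 8.10 with glybenclamide and 8.07 to 8.10 with DMSO. The spread of an array was less even: its interquartile range was 3.13, 3.0 and 3.06 log2 units on the glybenclamide arrays, and 2.92, 2.82 and 3.02 on the DMSO arrays. The root mean square difference between 2 arrays was 0.107 to 0.143 among glybenclamide arrays, 0.148 to 0.239 between glybenclamide and DMSO arrays, and 0.128 to 0.182 among DMSO arrays.

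Glybenclamide changed many genes by small amounts. A probe set is called changed here when its adjusted p in limma, by Benjamini and Hochberg over all 21789, is under 0.05. By that rule 2079 probe sets (9.54%) changed, of which 1479 (6.79%) rose and 600 (2.75%) fell. None reached a 2-fold change, 52 rose and 7 fell by 1.5-fold or more, and the median log2 fold change was 0.28 among those that rose and -0.26 among those that fell. Counted as genes, with the brightest probe set of each, 1413 (7.09%) rose and 552 (2.77%) fell. All 3 glybenclamide arrays lay above all 3 DMSO arrays in 3610 probe sets (16.6%) and below them in 3257 (14.9%), called or not. In bulk RNA, fewer cells of a kind and less RNA per cell cannot be told apart.

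The balance of rises and falls moved with the spread of the arrays. Rises made up 71.1% of the calls, 60.5% after quantile normalization of the arrays, 51.4% with each array's interquartile range as a covariate, and 76.7% among the brighter probe sets alone. With that covariate 829 probe sets rose and 784 fell. The median log2 fold change of all probe sets was -0.03, and that of 1027 olfactory receptor genes was -0.08, or -0.01 after quantile normalization. The number of calls also rested on single arrays: it was 1246 without glybenclamide replicate 1, 1226 without glybenclamide replicate 3 and 1126 without DMSO replicate 2.

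**Figure D1:**
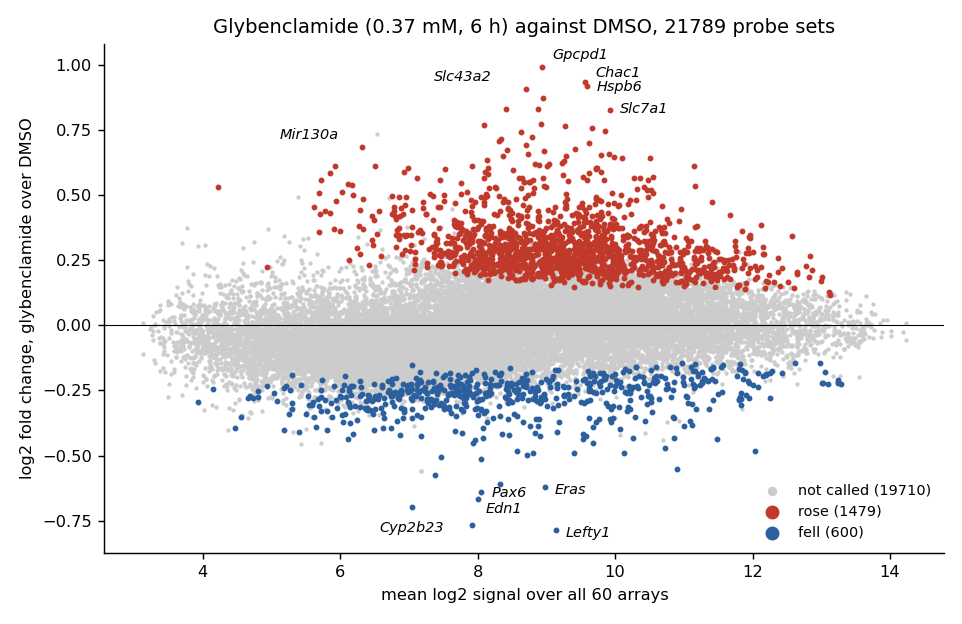
Each point is a probe set, with its mean log2 signal over all 60 arrays on the x axis and its log2 fold change, glybenclamide over DMSO, on the y axis; red points rose (1479), blue points fell (600) and grey points were not called. The rises reach 0.99 (Gpcpd1) and the falls -0.78 (Lefty1), and most called changes lie well inside 0.5.

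The largest rise was that of Gpcpd1, a phosphodiesterase that splits glycerophosphocholine and so frees choline. Its log2 signal was 9.67, 9.62 and 9.76 with glybenclamide and 8.66, 8.62 and 8.80 with DMSO. The groups lay far apart, with each glybenclamide array above every DMSO array. The difference was 0.99 ± 0.075 (SE with the spread estimated over all 60 arrays, n = 3 arrays a group), a 1.99-fold rise (adjusted p = 2.60e-13). Chka, choline kinase alpha, which uses choline in the first step of phosphatidylcholine synthesis, moved the other way. It had 9.76, 9.72 and 9.66 with glybenclamide and 10.19, 10.17 and 10.24 with DMSO. All 3 glybenclamide arrays were lower than all 3 DMSO arrays, and the change was -0.49 ± 0.060 (adjusted p = 1.05e-07). Slc44a2, a choline transporter-like protein picked after its value was seen, rose by 0.52 (adjusted p = 7.95e-07).

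Transport proteins stood out among the leading rises. Slc43a2, a transporter of large neutral amino acids, had 9.54, 9.36 and 9.51 with glybenclamide and 8.59, 8.57 and 8.53 with DMSO. The DMSO arrays were almost level and the groups did not overlap, with a change of 0.91 ± 0.075 (adjusted p = 2.06e-12). Slc7a1, which carries arginine and lysine, had 10.57, 10.35 and 10.47 with glybenclamide and 9.60, 9.70 and 9.61 with DMSO. It was higher on each glybenclamide array, by 0.83 ± 0.083 on average (adjusted p = 7.67e-10). Slc16a6, of the monocarboxylate transporter family, rose by 0.77 ± 0.063 (adjusted p = 1.84e-12), and Slc43a3, a purine nucleobase transporter, by 0.72 (adjusted p = 1.61e-09).

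Over all 364 solute carrier genes, a family chosen after its values were seen, 50 rose (13.7%) and 6 fell, beside 7.09% and 2.77% of all genes. The family's median change was 0.00, so the middle of the family stood near the -0.02 of all genes. Further rises included Slc1a4 (0.65), Slc1a5 (0.35) and Slc38a1 (0.25), carriers of neutral amino acids, and the lysosomal amino acid sensor Slc38a9 (0.45). The falls included Slc39a10 (-0.43) and Slc30a2 (-0.29), both zinc transporters, and the iron exporter Slc40a1 (-0.28). Rises numbered 46 after quantile normalization and 34 with the interquartile range as covariate. The cystine and glutamate exchanger Slc7a11 rose by 0.30 ± 0.090 (adjusted p = 0.0257).

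Potassium channel genes did not rise as a family, except for Kcng3. This gene encodes an electrically silent subunit that modifies voltage-gated potassium channels. It had 9.37, 9.20 and 9.33 with glybenclamide and 8.62, 8.53 and 8.67 with DMSO. The groups were clearly separate, and the change was 0.69 ± 0.088 (adjusted p = 1.90e-07). Of 92 potassium channel genes measured, 1 rose and 4 fell, namely Kcnh8 (-0.32), Kcna1 (-0.24), Kcnk10 (-0.22) and Kcnj3 (-0.18), beside 7.09% and 2.77% of all genes. Falls numbered 2 after quantile normalization and 2 with the interquartile range as covariate, and Kcna1 lost its call in 9 of 11 alternatives. The family, like the next ones, was chosen after its values were seen. Of 5 Lrrc8 genes, which encode the subunits of a volume-regulated anion channel, Lrrc8d rose by 0.65 (adjusted p = 3.17e-07) and Lrrc8b by 0.62 (adjusted p = 1.51e-07). On the array values Lrrc8d had 10.45, 10.42 and 10.53 with glybenclamide and 9.87, 9.69 and 9.90 with DMSO, without overlap.

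The genes of the drug's known target were not called. Of the 4 measured, 0 were among the bright probe sets, those above the median signal. Whether these genes were expressed could therefore not be read from their values. Abcc8, the sulfonylurea receptor of beta cells, had 7.46, 7.63 and 7.56 with glybenclamide and 7.76, 7.87 and 7.65 with DMSO. Its glybenclamide arrays were all slightly lower, by 0.21 ± 0.078 on average (log2 change -0.21, adjusted p = 0.0785), and without DMSO replicate 3 it was called as lower. Kcnj11, the pore of the same channel, had 7.62, 7.99 and 7.89 with glybenclamide and 7.96, 8.27 and 7.98 with DMSO, and its groups overlapped (-0.24 ± 0.109, adjusted p = 0.164). Abcc9 and Kcnj8, the receptor and pore of the vascular channel, differed by -0.07 (adjusted p = 0.602) and -0.04 (adjusted p = 0.844), and the sign of both changed with quantile normalization. Of 48 ABC transporter genes, a family chosen after its values were seen, 6 rose (12.5%, beside 7.09% of all genes) and 3 fell, led by Abca3 (0.34) and Abcg5 (-0.26). Rises numbered 3 after quantile normalization and falls 0 with the interquartile range as covariate. Of 11 further genes for reported glybenclamide targets or drug-transporting ABC proteins, only Abcc1 was called. This exporter of glutathione conjugates rose by 0.27 (adjusted p = 0.0188), though without glybenclamide replicate 1 or 3, without DMSO replicate 2, after quantile normalization and with the interquartile range as covariate it was not called.

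**Figure D2:**
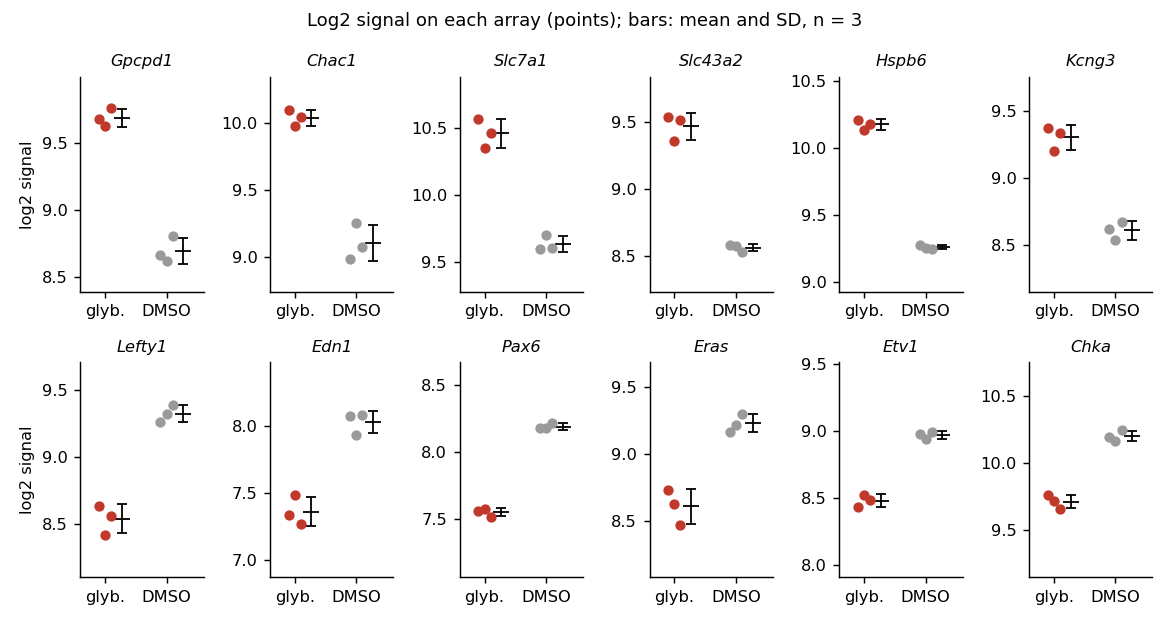
Log2 signal of 12 genes on each of the 3 glybenclamide arrays (red, left) and the 3 DMSO arrays (grey, right), with the mean and SD of each group beside the points; every panel spans the same height in log2 units. In all 12 genes the glybenclamide and DMSO points are separate, with the upper 6 genes higher and the lower 6 lower with glybenclamide.

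Genes of the amino acid response rose together. In this response the transcription factor ATF4 induces amino acid transporters, amino acid synthesis enzymes and tRNA synthetases when amino acids are short or the endoplasmic reticulum is stressed. Of 32 measured members 19 rose (59.4%, beside 7.09% of all genes) and 1 fell, with a median change of 0.22 against -0.02 over all genes. Chac1, which breaks down glutathione, led them with 10.09, 9.97 and 10.04 for glybenclamide and 8.99, 9.25 and 9.07 for DMSO. No DMSO array came near the glybenclamide arrays, and the change was 0.93 ± 0.084 (adjusted p = 2.91e-11).

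Atf4 itself had 8.88, 8.92 and 8.89 with glybenclamide and 8.45, 8.50 and 8.49 with DMSO. Both groups were tight and apart, with a change of 0.42 ± 0.061 (adjusted p = 3.27e-06). The glycine transporter Slc6a9 rose by 0.63, the pseudokinase Trib3 by 0.50, the mitochondrial folate enzyme Mthfd2 by 0.41 and Gpt2, which makes alanine, by 0.41. Ddit3, the stress factor also called CHOP, rose by 0.34 (adjusted p = 0.0100). Asns, the asparagine synthetase, rose by a smaller 0.21 (adjusted p = 0.00195). The member that fell was Slc38a2, a neutral amino acid carrier, by 0.18 on the log2 scale (adjusted p = 0.000773). Atf3, Sesn2, Ddit4 and Phgdh were among the 12 that were not called, at 0.18, 0.16, 0.19 and 0.13. Gdf15 was not analysed here.

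Cytosolic aminoacyl-tRNA synthetases, which charge tRNAs with amino acids, had 8 rises and 0 falls among 18 genes. Rises made up 44.4% of this list, beside 7.09% of all genes, and its median was 0.13. Cars (0.26), Nars (0.26), Mars1 (0.25) and Lars (0.25) rose most. Mars1 had 11.69, 11.67 and 11.73 with glybenclamide and 11.45, 11.51 and 11.38 with DMSO, again without overlap. The number called was 5 without glybenclamide replicate 3 and also 5 without DMSO replicate 2. Endoplasmic reticulum chaperones and their partners moved less as a list, with a median of 0.04. Among 23 genes 3 rose (13.0%, beside 7.09% of all genes). Those 3 were Derl3 (0.62) and Herpud1 (0.46), both parts of the machinery that removes misfolded proteins, and Edem1 (0.33), which marks such proteins for removal.

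Promoters of 2 genes of the amino acid response are given because they hold the composite site to which ATF4 and a C/EBP factor can bind together. The letters searched were TGATGNAA on both strands, and capitals mark the matches. The sequences and positions are those of RefSeq on build GRCm38.p6, around a gene's annotated start, written 5′ to 3′ along the gene. The Chac1 promoter is chr2:119350992-119351291 on the plus strand, and that of Slc7a11 is chr3:50443564-50443863 on the minus strand.
Chac1: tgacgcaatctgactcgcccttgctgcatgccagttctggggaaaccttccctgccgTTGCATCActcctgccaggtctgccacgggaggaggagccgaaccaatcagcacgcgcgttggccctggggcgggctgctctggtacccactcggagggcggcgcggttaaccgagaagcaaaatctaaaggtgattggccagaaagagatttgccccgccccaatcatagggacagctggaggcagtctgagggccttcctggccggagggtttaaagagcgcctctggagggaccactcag
Slc7a11: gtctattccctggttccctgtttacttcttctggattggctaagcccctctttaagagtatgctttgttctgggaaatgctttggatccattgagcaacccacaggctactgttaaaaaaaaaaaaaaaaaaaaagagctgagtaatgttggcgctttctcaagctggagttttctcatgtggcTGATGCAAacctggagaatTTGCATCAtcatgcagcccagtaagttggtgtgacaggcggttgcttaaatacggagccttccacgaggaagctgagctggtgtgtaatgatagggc

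Among the amino acid response genes that rose, 5 of 22 listed promoters held this motif (Asns, Chac1, Nupr1, Slc7a11 and Trib3), as did 3 of 11 promoters of members not called (Atf3, Fgf21 and Vldlr). In the table as a whole it was in 3.61% of 1579 promoters of genes that rose, 3.30% of 546 promoters of genes that fell and 3.08% of 19116 promoters of all genes tested. The motif was therefore about as common in the called members as in the uncalled ones. A match describes letters in this window and no binding.

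Lipid synthesis genes rose as well. Of 20 measured genes of cholesterol synthesis and uptake 10 rose (50%, beside 7.09% of all genes) and 0 fell (median 0.21). Cholesterol rises numbered 7 with the 6 arrays alone and 7 to 11 with 1 array left out. Of 17 genes of fatty acid synthesis 9 rose (52.9%) and 0 fell (median 0.23). Against the mean of the other 18 compounds 3 of the cholesterol genes and 6 of the fatty acid genes were higher. Both pathways are driven by SREBP transcription factors, which Insig1 holds back in the endoplasmic reticulum. Insig1 had 10.37, 10.28 and 10.28 with glybenclamide and 9.95, 9.76 and 9.98 with DMSO. The groups were apart by more than their own spread, with a change of 0.42 ± 0.084 (adjusted p = 0.000582). The cholesterol enzymes Nsdhl (0.38), Dhcr7 (0.38), Lss (0.36) and Msmo1 (0.35) followed.

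Scd1, a desaturase that makes oleate, had 10.43, 10.25 and 10.36 with glybenclamide and 9.88, 9.73 and 9.94 with DMSO. Every glybenclamide array was higher, and the change was 0.50 ± 0.067 (adjusted p = 7.44e-07). The desaturases Fads2 (0.44) and Scd2 (0.38), the acetyl-CoA carboxylase Acaca (0.28) and the fatty acid synthase Fasn (0.25) also rose. The number of fatty acid genes called was 5 without glybenclamide replicate 1, without DMSO replicate 1 or without DMSO replicate 2, and 5 with the interquartile range as covariate. Of 21 PPAR targets and fatty acid oxidation genes 3 rose (14.3%, beside 7.09% of all genes) and 1 fell (4.76%, beside 2.77%). Those that rose were Cpt1a (0.42), Acot2 (0.38) and Fabp3 (0.24), and Cidea fell by 0.32. Of 30 subunits of oxidative phosphorylation 0 were called.

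Lysosomal genes rose in part. Of 37 lysosome and autophagy genes 12 rose (32.4%, beside 7.09% of all genes) and 1 fell (2.70%, beside 2.77%). The median of the list was 0.12. Gaa, the acid glucosidase, had 10.79, 10.50 and 10.57 with glybenclamide and 10.13, 10.03 and 10.13 with DMSO. The glybenclamide arrays were spread more widely and still all higher, by 0.52 ± 0.087 (adjusted p = 3.16e-05). Hexa (0.48), a hexosaminidase subunit, and Mcoln1 (0.38), the lysosomal calcium channel, followed. The leading rises outside the list held Idua (0.72), the iduronidase, and Cd68 (0.75), a lysosomal membrane protein. Of 21 proton pump genes, a family chosen after its values were seen, 5 rose (23.8%, beside 7.09% of all genes) and 0 fell. Atp6v0e2 (0.29) and Atp6v1a (0.24) were among them, and 3 rose with the interquartile range as covariate. The member that fell was Rragd, a Rag GTPase that carries amino acid signals at the lysosome, by 0.30 (adjusted p = 0.00183). Lysosome rises numbered 7 without glybenclamide replicate 1, 8 without glybenclamide replicate 3, 6 without DMSO replicate 2 and 6 with the interquartile range as covariate.

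Promoters of 2 lysosomal genes that rose are given because they hold the core of the CLEAR element, at which the transcription factor TFEB binds. The letters TCACGTGA were searched on both strands, and also CACGTG, the E-box within it; capitals mark both. The Mcoln1 promoter is chr8:3500269-3500568 and the second listed Ctsa promoter is chr2:164833523-164833822, both on the plus strand of GRCm38.p6.
Mcoln1: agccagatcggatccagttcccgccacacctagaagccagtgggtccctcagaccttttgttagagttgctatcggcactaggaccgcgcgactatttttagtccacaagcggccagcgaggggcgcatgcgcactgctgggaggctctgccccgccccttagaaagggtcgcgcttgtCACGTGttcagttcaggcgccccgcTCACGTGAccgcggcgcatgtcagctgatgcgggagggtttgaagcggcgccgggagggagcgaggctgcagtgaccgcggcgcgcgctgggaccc
Ctsa: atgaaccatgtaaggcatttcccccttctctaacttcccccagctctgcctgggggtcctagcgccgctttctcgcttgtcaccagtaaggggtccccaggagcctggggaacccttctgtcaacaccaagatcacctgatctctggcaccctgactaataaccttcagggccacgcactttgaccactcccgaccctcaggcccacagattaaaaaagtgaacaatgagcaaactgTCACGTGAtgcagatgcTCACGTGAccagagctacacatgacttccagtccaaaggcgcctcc

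The CLEAR core was in 4 of 11 promoters of lysosome genes that rose (Atp6v0d1, Ctsa, Gla and Mcoln1) and in 1 of 26 promoters of those not called (Ctsd). Over the whole table it was in 2.28% of promoters of genes that rose, 1.28% of those that fell and 1.32% of all tested. The E-box was in 12% of promoters of genes that rose, 7.51% of those that fell and 8.26% of all. Ctsa, which encodes the protective protein of lysosomal glycosidases, rose by 0.28 ± 0.062 (adjusted p = 0.00160). Other motifs stood closer together: the sterol element letters TCACNCCAC were in 1.39%, 1.10% and 1.18% of the same promoters, and the antioxidant element letters TGACNNNGC in 15.5%, 12.3% and 13.2%. The CRE letters TGACGTCA were in 2.91%, 3.66% and 2.37%.

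Targets of NRF2, the factor that answers oxidative and electrophilic stress, had 8 rises and 0 falls among 24 genes (median 0.11). Rises made up 33.3% of this list, beside 7.09% of all genes. Hmox1, heme oxygenase, had 11.48, 11.57 and 11.60 with glybenclamide and 10.99, 10.85 and 10.99 with DMSO. Its groups were apart, and it rose by 0.61 ± 0.065 (adjusted p = 2.43e-09). Srxn1, which repairs peroxiredoxins, rose by 0.40, and the detoxifying enzymes Ephx1 and Gstm1 by 0.32 each. The list shares Slc7a11 with the amino acid response. NRF2 rises numbered 4 without glybenclamide replicate 1, 3 without glybenclamide replicate 3 and 3 without DMSO replicate 2, so most of them rested on single arrays, as did the calls of Ephx1 and Gstm1.

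Among heat shock genes 2 of 16 rose (12.5%, beside 7.09% of all genes), Hspb6 and Dnajb4 (0.32), and the list median was -0.01. Rises numbered 1 without glybenclamide replicate 2, glybenclamide replicate 3 or DMSO replicate 2. Hspb6, a small heat shock protein best known from muscle, had 10.21, 10.14 and 10.18 with glybenclamide against 9.28, 9.25 and 9.24 with DMSO. Arrays within each group were nearly level, and the change was 0.92 ± 0.070 (adjusted p = 2.60e-13). The metallothionein Mt1 rose by 0.38, and the p53 target Pmaip1, which promotes apoptosis, fell by 0.36. Other named rises were Rnf157, a ubiquitin ligase (0.83), Rad9b, a relative of the DNA damage clamp subunit Rad9 (0.83), and Stag3, a cohesin subunit of meiosis (0.77). Gm13375 (0.87), Sat2 (0.77), Gm5617 (0.75), 4930447C04Rik (0.74), Ahnak2 (0.71) and Prss42 (0.70) complete the leading rises.

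**Figure D3:**
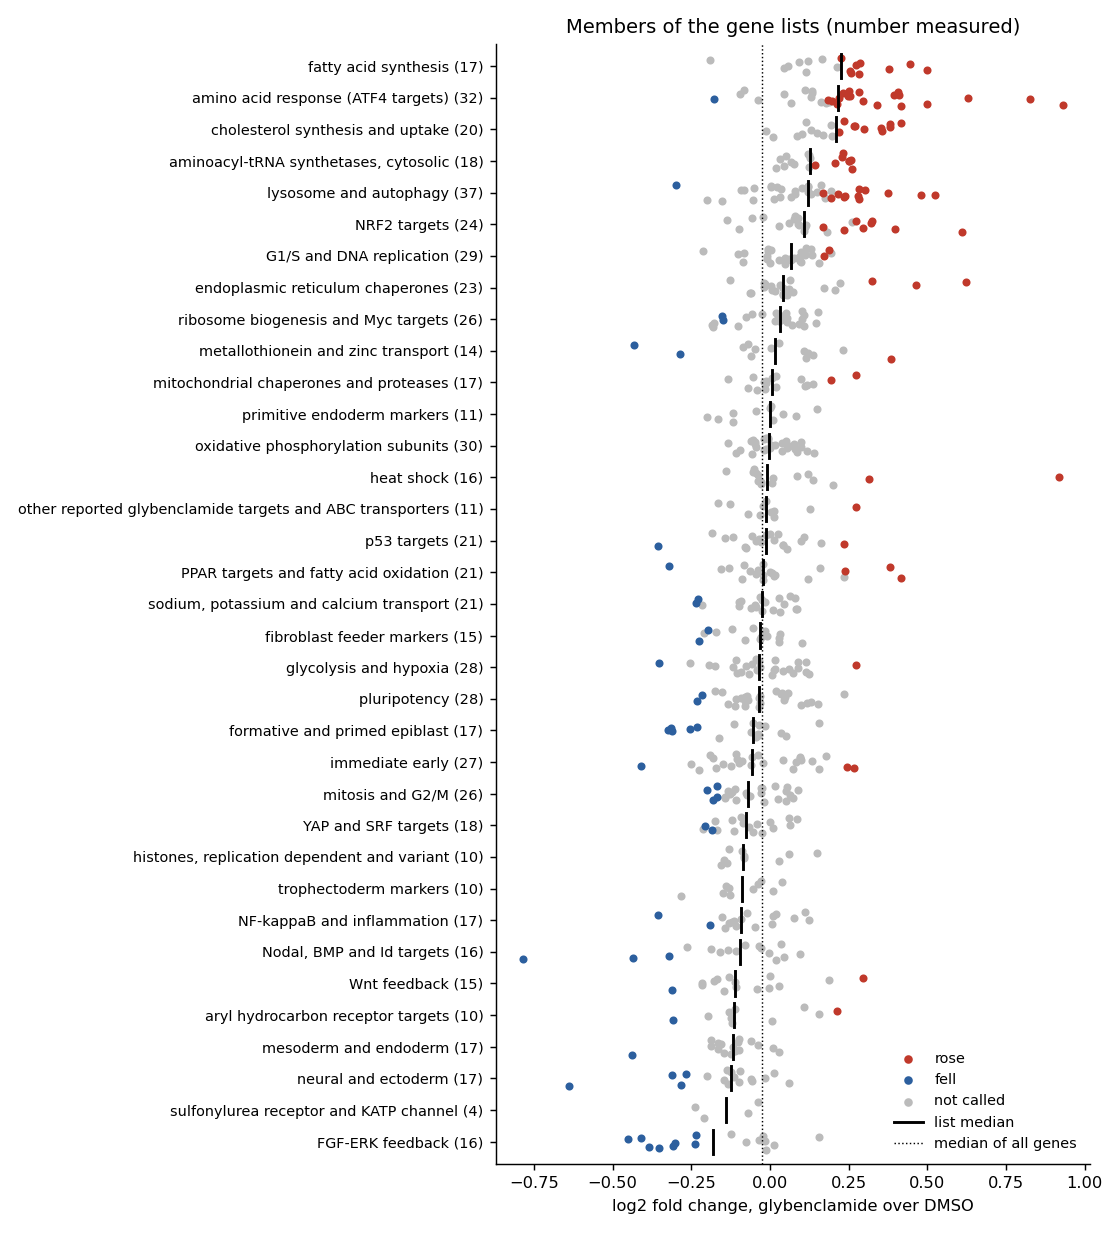
Each point is a gene at its log2 fold change, glybenclamide over DMSO, in rows of 35 gene lists with the number measured; red rose, blue fell, grey was not called, a bar marks the list median and the dotted line the median of all genes (-0.02). Fatty acid synthesis, the amino acid response and cholesterol genes have the highest medians (0.23, 0.22 and 0.21), and FGF-ERK feedback genes the lowest (-0.18).

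Feedback genes of FGF-ERK signalling fell together. Of 16 members 8 fell (50.0%, beside 2.77% of all genes) and 0 rose, with a median of -0.18. These genes are switched on by active ERK, and most of their proteins then damp the pathway. Etv1, an ETS transcription factor, had 8.43, 8.52 and 8.48 with glybenclamide and 8.98, 8.94 and 8.99 with DMSO on the more changed of its probe sets. Its groups were tight and separate, with a change of -0.49 ± 0.067 (adjusted p = 7.52e-07), and the brighter probe set gave -0.45. The inhibitors Spry4 (-0.38), Spry2 (-0.35) and Spred1 (-0.31) fell, and so did the ERK phosphatases Dusp6 (-0.30) and Dusp4 (-0.24).

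Dusp6 illustrates the evenness of these falls. It had 10.78, 10.80 and 10.80 with glybenclamide and 11.11, 11.07 and 11.12 with DMSO, with no overlap between the groups. The immediate early gene Egr1, a fast target of ERK, fell by 0.41 ± 0.070 (adjusted p = 4.59e-05), with 8.77, 8.65 and 8.56 for glybenclamide and 9.12, 9.08 and 9.00 for DMSO. Of 27 immediate early genes 1 fell, Egr1, and 2 rose, Jun (0.27) and Jund (0.24). Those shares, 3.70% lower and 7.41% higher, were near the 2.77% and 7.09% of all genes. Falls on that list numbered 5 after quantile normalization, 5 with the interquartile range as covariate and 4 among bright probe sets. Eras, a Ras protein of embryonic stem cells, fell by 0.62 (adjusted p = 5.52e-06), and Fgfbp1, which releases FGFs from the matrix, by 0.61 (adjusted p = 7.49e-05).

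The largest fall was that of Lefty1, a secreted inhibitor of Nodal that is itself induced by Nodal. It had 8.64, 8.42 and 8.56 with glybenclamide and 9.26, 9.32 and 9.39 with DMSO. No arrays overlapped, and the change was -0.78 ± 0.089, a 1.72-fold fall (adjusted p = 1.40e-08). Its neighbour in function Lefty2 fell by 0.43 and Skil, a repressor of the same pathway, by 0.32. These were the 3 that fell among 16 Nodal, BMP and Id genes (18.8%, beside 2.77% of all genes), of which 0 rose. Eomes, a mesoderm and endoderm factor, fell by 0.44 (adjusted p = 6.45e-06). It was the only called gene of 17 on that list (5.88%, beside 2.77% of all genes).

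Pax6, a transcription factor of neural and eye development, had 7.56, 7.57 and 7.52 with glybenclamide and 8.18, 8.18 and 8.22 with DMSO. Both groups were nearly level and clearly apart, by -0.64 ± 0.077 (adjusted p = 7.62e-08). It led 4 falls among 17 neural and ectoderm genes (23.5%, beside 2.77% of all genes), with En1 (-0.31), Sox1 (-0.28) and En2 (-0.27). The number called was 2 without DMSO replicate 2. Sox1 lost its call in 4 of 12 alternatives and En2 in 4 of 11. Of 17 genes of the formative and primed epiblast 5 fell (29.4%, beside 2.77% of all genes) and 0 rose. The 5 were Sall2 (-0.33), Zic5 (-0.32), Lef1 (-0.31), Zic2 (-0.26) and Sox3 (-0.23). Falls on this list numbered 3 without glybenclamide replicate 2, 3 without glybenclamide replicate 3 and 2 with the 6 arrays alone. Against the mean of the other 18 compounds 2 of its genes were higher and 2 lower.

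Few naive and general pluripotency genes were called. Of 28 measured, 0 rose (7.09% of all genes did) and 2 fell (7.14%, beside 2.77% of all genes). Those were Nr5a2, by 0.23, and Lin28a, by 0.21, and the median of the list was -0.04. Falls numbered 5 after quantile normalization and 4 with the interquartile range as covariate. Lin28a, an RNA-binding protein that blocks let-7 processing, had 11.33, 11.30 and 11.31 with glybenclamide and 11.50, 11.56 and 11.53 with DMSO. That small step was larger than the spread within each group (adjusted p = 0.00244). Nr5a2 was not called without glybenclamide replicate 2 or 3 and without DMSO replicate 1 or 3. Of 26 mitosis genes 4 fell by 0.17 to 0.20 (15.4%, beside 2.77% of all genes). The number called was 0 without glybenclamide replicate 3 or DMSO replicate 3, and 1 without glybenclamide replicate 2. It was 2 when either replicate 1 was left out, and 7 fell after quantile normalization. Of 29 G1/S genes 2 rose (6.90%, beside 7.09% of all genes), and 0 without glybenclamide replicate 3 or DMSO replicate 2. These shifts are small beside that of Edn1, the precursor of the vasoconstrictor endothelin, which had 7.34, 7.48 and 7.27 with glybenclamide and 8.08, 7.94 and 8.08 with DMSO (-0.67 ± 0.082, adjusted p = 1.10e-07).

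The other leading falls were those of Cyp2b23 (-0.77), a cytochrome P450, Tmem38b (-0.70), a cation channel of the endoplasmic reticulum, 9330159F19Rik (-0.57), the Cdc42 effector Cdc42ep3 (-0.51), the leukotriene receptor Cysltr1 (-0.51), Atf7ip2 (-0.50) and the LIM-only factor Lmo4 (-0.49). Of 21 Sox genes, a family chosen after its values were seen, 4 fell (2.77% of all genes did) and 0 rose, with 3 falls after quantile normalization and 1 with the interquartile range as covariate.

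The remaining lists held few calls, and of all genes 7.09% rose and 2.77% fell. Of 15 Wnt feedback genes Notum, which inactivates Wnt proteins, rose by 0.29 and Lef1 fell. Of 28 glycolysis and hypoxia genes Vegfa rose by 0.27 and the demethylase Kdm3a fell by 0.35. Of 10 aryl hydrocarbon receptor targets Nfe2l2, which encodes NRF2, rose by 0.21 and Cyp1b1 fell by 0.31; Nfe2l2 lost its call in 5 of 12 alternatives. Among 17 mitochondrial chaperones and proteases Oma1 (0.27) and Spg7 (0.19) rose, which is 11.8% beside 7.09% of all genes, and 0 were called without glybenclamide replicate 3, DMSO replicate 1 or DMSO replicate 2. Falls numbered 2, with 0 rises, among 18 YAP and SRF targets (11.1%) and 17 NF-kappaB genes (11.8%). They also numbered 2, with 0 rises, among 26 ribosome biogenesis genes (7.69%) and 21 sodium, potassium and calcium transport genes (9.52%). In each of these 4 lists 0 were called without glybenclamide replicate 3, while after quantile normalization 5 YAP and SRF targets and 4 ribosome biogenesis genes fell. Of 10 histone genes 0 were called. Of 21 p53 targets Sesn1 rose by 0.24 beside the fall of Pmaip1, but Sesn1 lost its call in 8 of 12 alternatives. Of 14 metallothionein and zinc genes 1 rose (7.14%) and 2 fell (14.3%).

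Small RNA genes were also on the array. Whether their probe sets read primary, precursor or mature RNA is not given in the sources used here. Of 291 microRNA genes 4 rose (1.37%, beside 7.09% of all genes) and 4 fell (2.77% of all genes did). These numbers were 7 and 3 after quantile normalization and 1 and 0 with the interquartile range as covariate. Mir130a had 6.96, 6.66 and 6.69 with glybenclamide and 6.24, 5.88 and 6.13 with DMSO. Its glybenclamide arrays were all higher though more scattered than those of most named genes (0.68 ± 0.134, adjusted p = 0.000348). The stem cell microRNA genes Mir302b (0.61, adjusted p = 0.00546) and Mir302c (0.61, adjusted p = 0.0174) rose, 2 of 4 genes of that cluster, and 0 were called with the interquartile range as covariate. Their mature 3′ arms are given because they share letters of the seed, the stretch from base 2 to base 8 that pairs with targets, in capitals (RefSeq, GRCm38.p6).
miR-130a-3p: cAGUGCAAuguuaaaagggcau
miR-302b-3p: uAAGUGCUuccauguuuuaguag
miR-302c-3p: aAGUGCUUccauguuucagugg

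The letters AGUGC occur in the seed of each of the 3. Of 52 small nucleolar RNA genes 0 rose and 5 fell (7.09% and 2.77% of all genes did), with 8 falls when the interquartile range was a covariate. Snora16a led these with 10.78, 10.61 and 10.49 for glybenclamide and 11.23, 11.12 and 11.19 for DMSO. The groups did not overlap (-0.55 ± 0.158, adjusted p = 0.0177), but the call was lost without glybenclamide replicate 3 and without DMSO replicate 1, where the adjusted p reached 0.0994.

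Glybenclamide was next set against the mean of the other 18 compounds, a comparison that does not use the DMSO arrays. It differed in 2147 probe sets (9.85%), with 1475 higher (6.77%) and 672 lower (3.08%). Without glybenclamide replicate 1 the number was 1000, and without replicate 3 it was 947. All 20 of the genes named for the largest rises were also higher than this mean, and 14 of the 15 named for the largest falls were lower. The exception was Snora16a (-0.27, adjusted p = 0.126). The comparisons share the 3 glybenclamide arrays, so their calls are not independent.

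The size of the change depended on which arrays it was set against. Slc43a2 was 0.91 above DMSO and 0.79 above the other compounds, and Gpcpd1 0.99 and 0.78. For Chac1 the same values were 0.93 and 0.47, and its glybenclamide mean was exceeded by other compounds (10.66 with loratadine and 10.48 with sulfasalazine). Edn1 was lower by the same amount against both, at -0.67. Cyp26a1, which degrades retinoic acid, was 0.53 below the mean of the other compounds (log2 change -0.53), a mean that holds a value of 10.65 with retinoic acid. Against DMSO Cyp26a1 changed by -0.40 (adjusted p = 0.00128), with 6.30, 6.19 and 6.26 for glybenclamide and 6.67, 6.77 and 6.50 for DMSO.

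**Figure D4:**
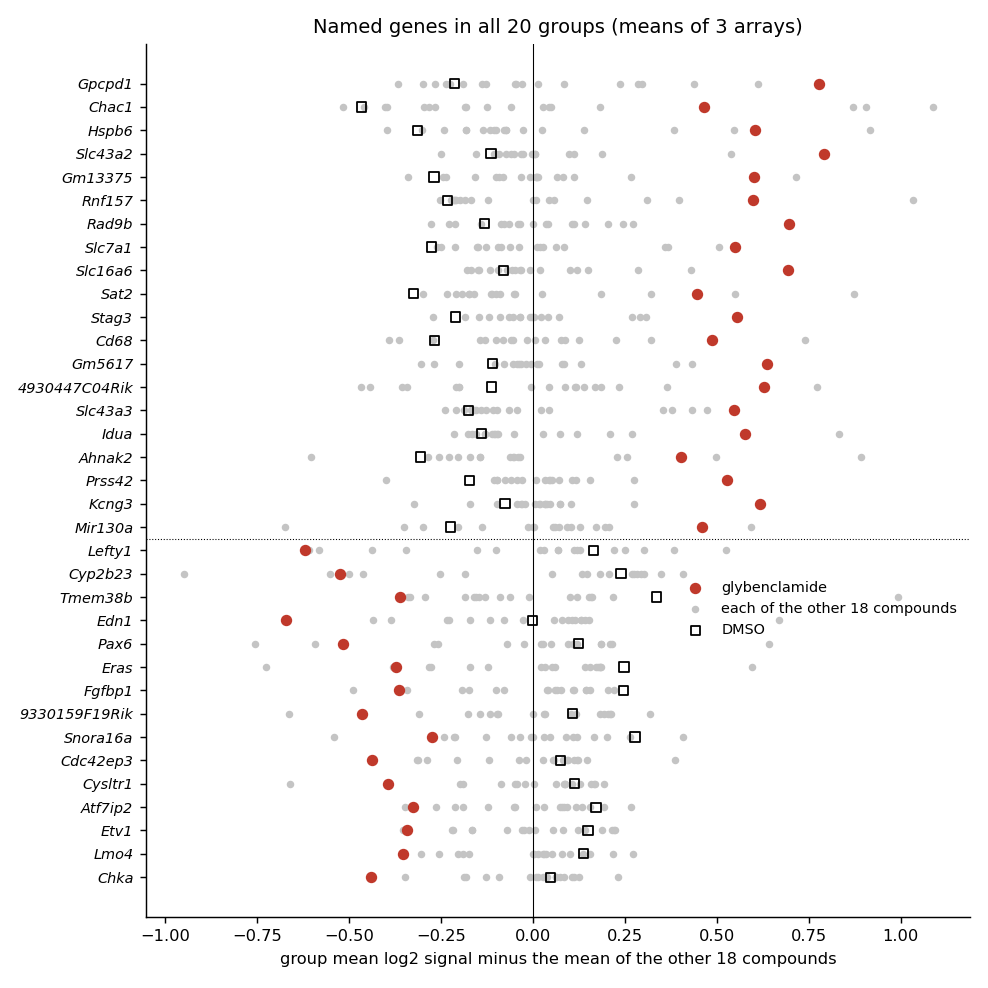
For the 20 genes that rose most (above the dotted line) and the 15 that fell most, points give the mean log2 signal of 3 arrays in each group, after subtraction of the mean of the other 18 compounds; red is glybenclamide, grey each other compound and an open square DMSO. Glybenclamide has the highest mean of all 20 groups in 10 of the 20 genes that rose and the lowest in 6 of the 15 that fell.

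Glybenclamide was finally compared with 3 other compounds classed as non-teratogens, at doses that differ from its own. Loratadine (0.043 mM) is an antihistamine, clozapine (0.028 mM) an antipsychotic and sulfasalazine (1 mM) an anti-inflammatory sulfa drug. The labels give a 24 h viability assay with the doses of loratadine and clozapine, as with glybenclamide, but not with sulfasalazine. Against loratadine 1484 probe sets differed (6.81%), 770 higher (3.53%) and 714 lower (3.28%) with glybenclamide. Against clozapine 1028 differed (4.72%), 713 higher (3.27%) and 315 lower (1.45%). Against sulfasalazine 526 differed (2.41%), 161 higher (0.739%) and 365 lower (1.68%).

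Leaving out glybenclamide replicates moved these numbers. Against loratadine it was 960 without replicate 1 and 977 without replicate 3. Against clozapine it was 611 and 555 in the same order of omission. Against sulfasalazine it was 309 without replicate 2 and 227 without replicate 3.

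Differences from loratadine ran both ways, also among stress genes. The group mean of Ddit3 was 1.24 lower (-1.24, adjusted p = 8.00e-14), that of the kinase Wnk1 1.10 lower (-1.10) and that of Chac1 0.62 lower (-0.62, adjusted p = 7.25e-07). Msmo1, of cholesterol synthesis, differed by -0.83 (adjusted p = 1.12e-11). Srxn1 was higher than with loratadine by 0.30 (adjusted p = 0.000448) and Edem1 by 0.19 (adjusted p = 0.0144). Foxd3, a stem cell transcription factor, was 0.64 higher than with loratadine (adjusted p = 3.71e-08), with 9.68, 9.49 and 9.53 on the glybenclamide arrays and a mean of 8.93 with loratadine. Lefty1 had like means with both, 8.54 with glybenclamide and 8.55 with loratadine (difference -0.01 ± 0.089).

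The largest differences from clozapine included genes of lipid metabolism in both directions. Insig1 differed by -0.83 (adjusted p = 1.73e-09) and Cyp51, which was not called against DMSO, by -0.77. Gpcpd1 was 0.97 higher (adjusted p = 7.76e-13), Slc43a2 0.79 higher and Oxsm, of mitochondrial fatty acid synthesis, 0.53 higher (adjusted p = 0.000126). Against sulfasalazine the order for Insig1 turned, since it was 0.52 higher with glybenclamide (adjusted p = 8.19e-05). The mean of Insig1 was 10.31 with glybenclamide, 11.08 with loratadine, 11.14 with clozapine and 9.79 with sulfasalazine. Plau, the urokinase gene, was 0.82 lower than with sulfasalazine (-0.82, adjusted p = 8.05e-09), and Egr1 0.67 lower (-0.67).

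In all 5 comparisons 23 probe sets were higher and 22 lower with glybenclamide. Kcng3 was among the first, by 0.69 above DMSO, 0.62 above the other compounds, 0.58 above loratadine, 0.64 above clozapine and 0.54 above sulfasalazine. Its mean of 9.30 was the highest of all 20 groups, the next being 8.96 with chlorthalidone. Oxsm was higher by 0.59, 0.55, 0.59, 0.53 and 0.36 in the same order. Slc43a2, Slc16a6, Rad9b, Edem1 and Srxn1 were others. The 22 lower ones held Edn1, Chka, Egr1, Dusp4, Adgre5, an adhesion receptor of leukocytes (-0.42 against DMSO), Oga, which removes O-GlcNAc from proteins (-0.37), and Mcl1, a survival factor (-0.27).

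**Figure D5:**
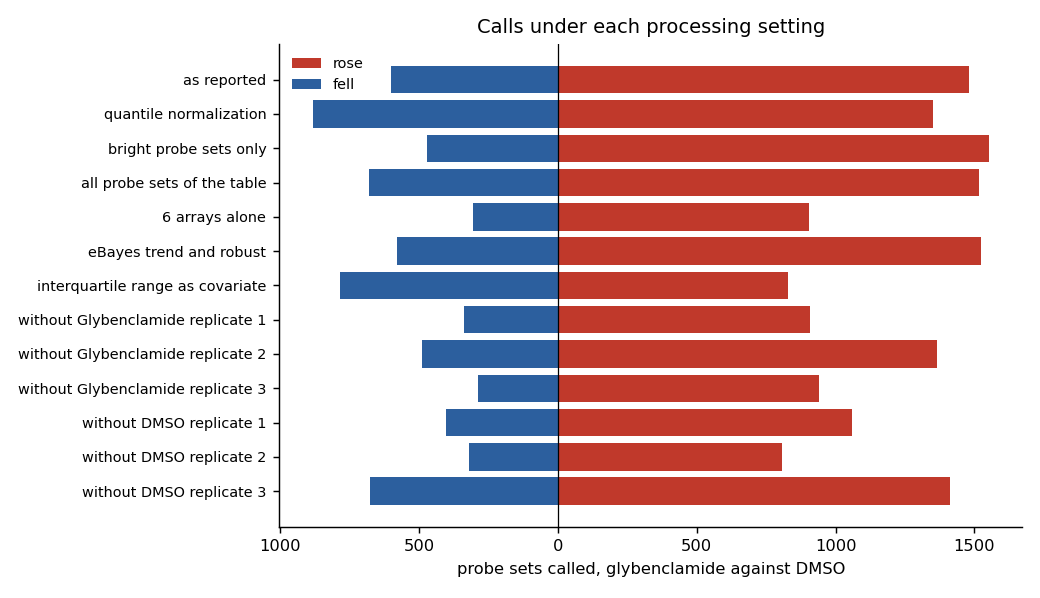
Number of probe sets called as higher (red, to the right) and lower (blue, to the left) with glybenclamide against DMSO, as reported and under 12 alternatives. Rises outnumber falls in every row, from 829 against 784 with the interquartile range as covariate to 1551 against 470 among bright probe sets.

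The named genes were picked for large changes with separate groups, which favours keeping a call. All 20 genes named for the largest rises were called under each of the 12 alternatives in which they were tested. So were 14 of 15 named for the largest falls, with Snora16a as the exception. Sat2, Mir130a, Cyp2b23, Tmem38b, Edn1, Pax6, 9330159F19Rik, Cdc42ep3 and Cysltr1 were tested under 11, because their probe sets lay below the median signal. Over every gene that the naming rules picked, 77 of 112 called ones kept their call in all such alternatives, the others lost it in at least 1, and 0 changed sign.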

How the data were processed

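Biotin-labelled cDNA made from the total RNA of 60 samples was read on Affymetrix mouse arrays, per the labels' protocols, and the authors deposited 1 table of log2 values made by RMA, per the submitters' processing notes; its version is not given in the sources used here. RMA brings arrays to a common distribution of probe signals before summarising, so small differences in spread between arrays can remain in the table, and the number of arrays limits the precision. Probe sets were named from the platform annotation: of 35556, 21789 had 1 symbol, 1621 several, and 12146 were not listed there. No genome of the array's build was used here.

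From the deposited log2 values a model of all 60 arrays with 20 group means was fitted in limma 3.58.1 (R 4.3.3), which gave 40 residual and 7.31 prior degrees of freedom, with moderated tests (eBayes) adjusted by Benjamini and Hochberg over the 21789 probe sets. The script was tested on simulated data. The 5 comparisons set glybenclamide against DMSO, the mean of the other 18 compounds, loratadine, clozapine and sulfasalazine. Gene lists and families used the brightest probe set of each gene. The members and lists were chosen with earlier results of these data known. Named genes were, among called probe sets with non-overlapping groups, the 20 that rose and the 15 that fell most, the KATP genes, up to 4 called members per list (otherwise 2), and the 6 largest differences each way per further comparison; other genes were picked after their values were seen. Alternatives were quantile normalization, bright probe sets only (above the median), all probe sets, the 6 arrays alone, trended and robust eBayes, each array's interquartile range as covariate, and leaving out each array.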

Additional observations from a re-analysis of the deposited data

Results flagged for a closer look

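Probe sets outside the reported comparisons also carried signal. When all 35556 probe sets were tested together, 419 of the 13767 that have several symbols or none passed the adjusted p threshold of 0.05 in limma for glybenclamide against DMSO. They were picked out because the comparisons of named genes do not use them, and their genes are not named here.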

How the results depend on the processing

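Having only 3 arrays a group limits the precision, and both single arrays and the scaling moved the counts. Probe sets changed against DMSO numbered 2079, 1210 with the 6 arrays alone and 1126 to 2090 when 1 array was left out. Of these, 1479 rose (905 with the 6 arrays, 829 with the interquartile range as covariate, 807 to 1413 with 1 array left out) and 600 fell (305 with the 6 arrays, 287 to 677). With 1 array left out, the counts against the other compounds were 947 to 1617, against loratadine 960 to 1189, against clozapine 555 to 871 and against sulfasalazine 227 to 409, where quantile normalization gave 830. With 1 array left out, rises numbered 5 to 9 among tRNA synthetases, 5 to 9 among fatty acid genes, 6 to 11 among lysosome genes and 3 to 8 among NRF2 targets. With the interquartile range as covariate they numbered 5, 5, 6 and 4 in the same lists, and with the 6 arrays alone tRNA synthetases had 5 and lysosome genes 7. With quantile normalization Abcc9 turned to 0.0053 and Kcnj8 to 0.027, and with the interquartile range as covariate to 0.014 and 0.095. With 1 array left out Kcnj8 ranged from -0.16 to 0.043. The cause of these changes was not tested, beyond the smaller number of arrays. No paired analysis was possible because the labels give no replicate numbers, and those used here follow accession order.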
